A study of Mus musculus with 50 samples.

Results

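The genes described here build and cross-link the extracellular matrix. They were the rows of the deposited count table whose mouse symbol named a collagen chain, a laminin chain, a fibrillin, a fibulin, a nidogen, a thrombospondin, a microfibril-associated protein, a lysyl oxidase, or Fn1, Sparc, Lum, Dcn, Postn or Hspg2. The rule used names alone and no measured value, and it found 56 of the 11708 genes in the table, of which 27 were collagen chains and 8 were laminin chains. No gene in the table had fewer than 10 counts in any library, so matrix genes below that level are not analysed here.

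RNA was sequenced from whole brains of mouse embryos at stage E13.5 (days of embryonic development), on the FVB/ANTJ strain background per the labels. Of 18 libraries, 9 were labelled wt, gtf2i or gtf2i/gtf2i, for a Gtf2i comparison, and 9 were labelled wt, ird1 or ird1/ird1, for a Gtf2ird1 comparison. Each group held 3 libraries, and each set of 9, called here the gtf2i cross and the ird1 cross, had its own wild types. A mutant allele written once was read as a heterozygote and written on both sides of a slash as a homozygote. The labels name no deletion or transgene and do not say what sequence the alleles change, so how far each is a loss of function cannot be read from them. Gtf2i encodes TFII-I, a transcription factor, and Gtf2ird1 encodes a related protein with the same kind of repeat domains.

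Fibrillar collagens form the tensile fibres of connective tissue, and in the embryonic brain they are made mostly by cells of the meninges and around vessels, not by neurons. Type IV collagens, laminins, nidogens and perlecan assemble into basement membranes, the thin sheets under the pial surface and around blood vessels to which radial glia and endothelial cells attach. Fibronectin, fibrillins and fibulins form pericellular and elastic fibres, matricellular proteins such as thrombospondins and Sparc tune how cells engage this matrix, and lysyl oxidases cross-link it.

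The matrix genes made up between 0.465% and 0.708% of all gene counts in a library. Library totals ran from 3239117 counts (ird1 cross wt replicate 2) to 7371483 (ird1/ird1 replicate 2), and the matrix genes received 21059 to 45304 of them. The median count of a matrix gene in a library was 279.5, and the smallest was 20, which alone carries a counting error of 22.4%. Among the targeted genes, Gtf2i lay between 598 and 658 CPM (counts scaled to a common library size) in gtf2i cross wt, between 363 and 375 in gtf2i and between 81.8 and 83.3 in gtf2i/gtf2i. The Gtf2ird1 transcript was higher in the libraries labelled ird1 (147 to 151 CPM) and ird1/ird1 (219 to 227) than in their wt (90.4 to 114), so its level does not show loss of the protein. In the gtf2i cross it was also higher in gtf2i (126 to 143 CPM) and gtf2i/gtf2i (245 to 286) than in wt (84.1 to 97.9), so a higher Gtf2ird1 transcript level was not confined to the ird1 libraries. All 20 neuronal markers on a marker list were in the table, against 1 of 13 for cartilage and bone and 0 of 12 for skeletal muscle.

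Per kilobase of transcript, the most abundant matrix transcript over all 18 libraries was Sparc, a collagen-binding glycoprotein, at 129.5 ± 10.0 CPM per kb (SD, n = 18). It was followed by the basement membrane collagen chain Col4a1 at 89.9 ± 13.4 and the microfibril protein Mfap2 at 84.9 ± 13.2 CPM per kb. The fibrillar chains Col3a1 (73.0 ± 14.6), Col1a1 (58.7 ± 19.6) and Col1a2 (55.3 ± 13.4 CPM per kb) came next, together with Col4a2 (62.4 ± 10.0) and fibronectin, Fn1 (50.1 ± 7.00). Sparc stood clear of the next gene by more than either SD, whereas from Col4a1 down to Fn1 each gene lay within the larger SD of its neighbour in the order of levels. In the other roles the leaders were lower: Col26a1 among the other collagens (20.8 ± 3.42), Thbs3 after Sparc among the matricellular genes (11.2 ± 1.44) and Loxl1 among the lysyl oxidases (5.92 ± 0.776 CPM per kb). At the lowest end were Col27a1 at 0.942 and Col11a2 at 1.16 CPM per kb. Sparc stood at the 97.4th percentile of all genes on this scale, and Col27a1 at the 0.556th.

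As a group the fibrillar collagens had the widest spread between libraries of 1 genotype. Their median within-group SD was 0.26 on the log2 scale, against 0.17 for the basement membrane genes and 0.17 for all genes. Within the ird1/ird1 group Col1a1 ran from 275 to 595 CPM, whereas Sparc ran from 300.2 to 330.5.

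RefSeq windows of 250 bases upstream of a transcript start (build GRCm38.p6) were at hand for 34 of the 56 genes, and 5 short motifs were searched in them on both strands. The 3 fibrillar collagens with the highest level among those with a window are shown, since the fibrillar group had the highest median fold change described below. Capitals mark matches on either strand to the motifs named after the sequences, and Col5a1 is printed to 206 bases, because the rest of its window lies within the annotated gene.
Col3a1 (plus strand, chr1:45311288-45311537): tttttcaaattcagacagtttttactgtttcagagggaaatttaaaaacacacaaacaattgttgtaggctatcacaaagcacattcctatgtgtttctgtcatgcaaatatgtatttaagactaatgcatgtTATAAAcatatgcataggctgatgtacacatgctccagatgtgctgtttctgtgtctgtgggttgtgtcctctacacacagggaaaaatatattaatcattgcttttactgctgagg
Col1a2 (plus strand, chr6:4505368-4505617): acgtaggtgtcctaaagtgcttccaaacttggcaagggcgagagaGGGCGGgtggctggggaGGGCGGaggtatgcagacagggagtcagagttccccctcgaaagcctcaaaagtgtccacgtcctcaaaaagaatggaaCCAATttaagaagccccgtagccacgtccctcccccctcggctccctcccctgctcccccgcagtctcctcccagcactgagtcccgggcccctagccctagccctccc
Col5a1 (plus strand, chr2:27886175-27886380): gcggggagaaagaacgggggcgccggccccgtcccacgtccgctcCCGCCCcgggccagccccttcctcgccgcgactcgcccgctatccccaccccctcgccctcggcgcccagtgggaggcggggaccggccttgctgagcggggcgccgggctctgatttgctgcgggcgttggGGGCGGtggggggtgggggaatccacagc
GGGCGG, the GC box recognised by Sp1-type factors, was present in 24 of 34 matrix gene windows (70.6%), against 62.7% of the 9097 genes of the count table with a window and 32.9% of all 27025 windows. CCAAT, the box bound by NF-Y, was present in 32.4%, against 36.7% of the table's genes and 34.5% of all windows. TATAAA was present in Col3a1 and Col11a2 only (5.9%, against 5.6% and 13.0%). The E-box CACGTG was found in 1 window (2.9%, against 8.6% and 6.0%), as was GGATTA, a sequence of the kind that Gtf2ird1's repeat domains are known to bind (2.9%, against 4.7% and 6.4%). A match is a string of letters in a window, and no binding was measured.

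In gtf2i/gtf2i brains most matrix genes had somewhat higher levels than in wt, and 1 of them, Thbs1, passed the test. With the number in the sample titles as a replicate block, described below, 6 passed (10.7%). That fit called 5.33% of all genes, against 0.94% without the block. Within title number 12419 the gtf2i/gtf2i library was above the wt library for 24 of the 56 genes (median log2 ratio -0.01). With all libraries of the cross and no block, fitted log2 fold changes were above 0 for 44 of the 56 genes (78.6%), against 50.4% of all genes. The median was 0.17 (a fold of 1.13), against 0.00 for all genes. A gene was called at a Benjamini-Hochberg adjusted p under 0.05 in edgeR's quasi-likelihood test over the whole table. This called 110 genes (0.94%), with 0.41% of all genes higher and 0.53% lower, and among the matrix genes 1 higher and 0 lower. At an unadjusted p under 0.05 the matrix genes counted 15 higher and 1 lower, where 6.08% and 8.3% of all genes met that limit. The 3 gtf2i/gtf2i values all lay above the 3 wt values for 11 matrix genes and all below for 3, against 7.82% and 8.98% of all genes. In whole brains, fewer cells of a type and less RNA per cell cannot be told apart.

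**Figure D1:**
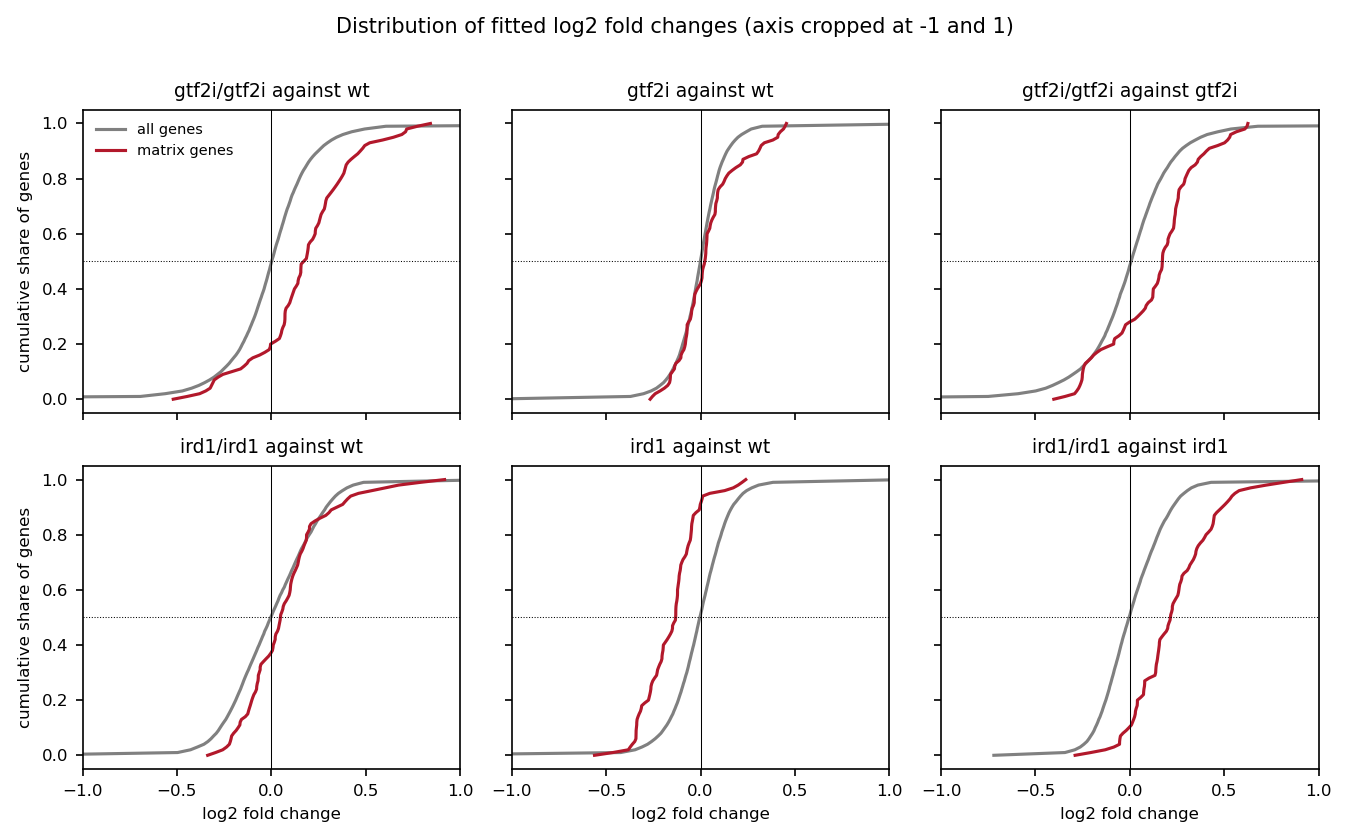
Cumulative share of genes (vertical axis) against the fitted log2 fold change (horizontal axis, cropped at -1 and 1) in 6 comparisons, for the 56 matrix genes (red) and all 11708 genes (grey). The red curve lies to the right of the grey one in gtf2i/gtf2i against wt (median 0.17), and to the left in ird1 against wt (median -0.13).

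Thbs1 encodes thrombospondin-1, a secreted matricellular protein that binds matrix and cell receptors and is known to activate latent TGF-beta. The gene lies at chr2:118111876-118127133. Its level was 29.7, 32.7 and 30.3 CPM in the 3 gtf2i cross wt libraries, 35.05, 36.0 and 37.1 in gtf2i, and 55.7, 58.7 and 52.6 in gtf2i/gtf2i. The 3 genotypes formed 3 separate bands with no overlap, ordered by the number of mutant alleles. Against wt, Thbs1 rose 1.79-fold in gtf2i/gtf2i (log2 0.84 ± 0.10 SE, adjusted p = 0.000583, edgeR), and it was called under all 15 alternative settings, with adjusted p from 3.06e-08 to 0.00783. Against gtf2i it rose 1.53-fold (log2 0.62 ± 0.10, adjusted p = 0.00465, edgeR), also called in all 15, with adjusted p from 0.000158 to 0.0357. The step from wt to gtf2i, log2 0.22 ± 0.10, did not pass (adjusted p = 1.00, edgeR).

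**Figure D2:**
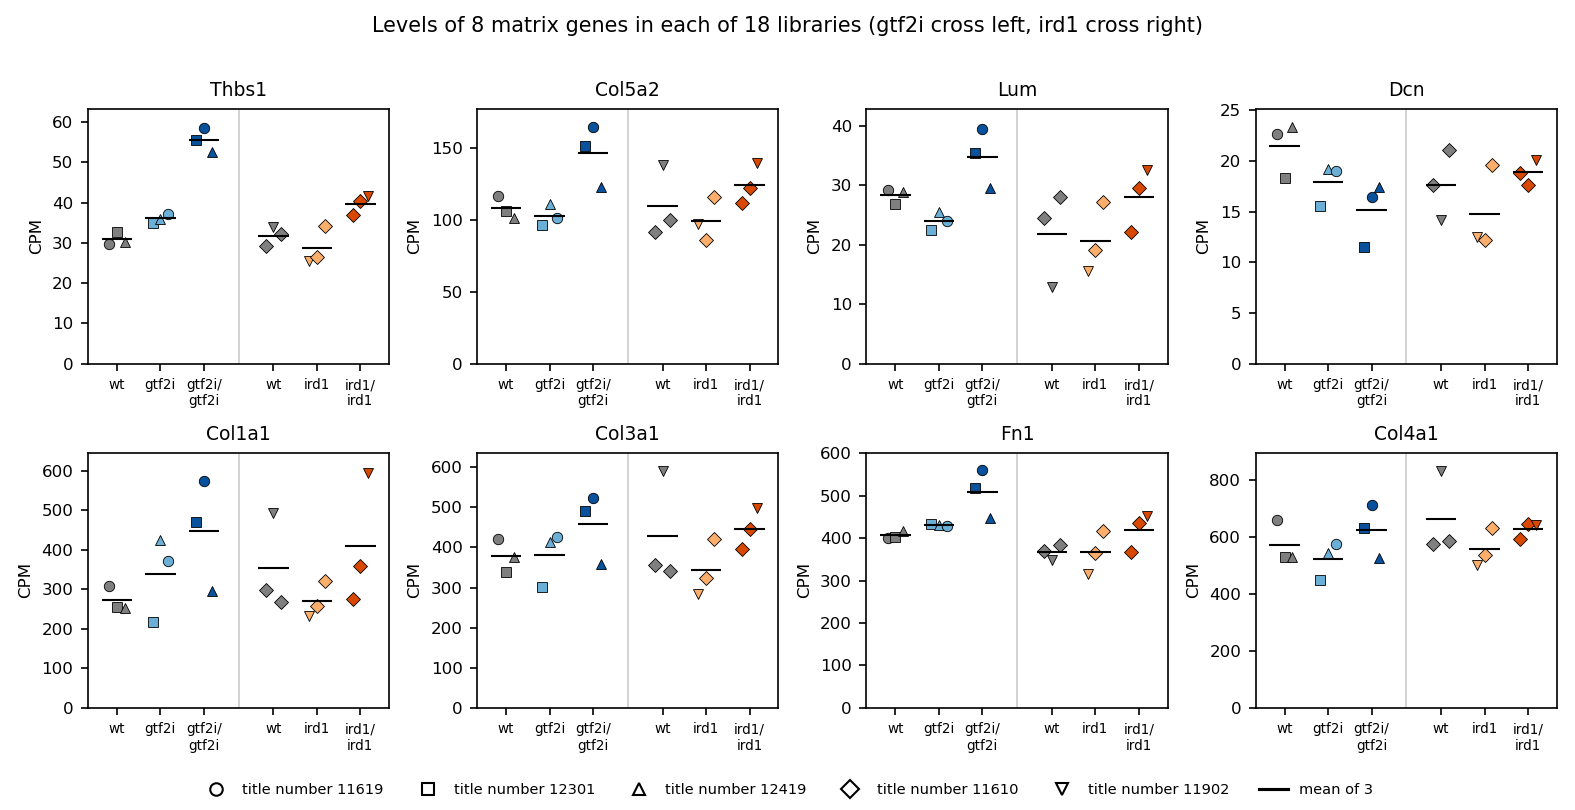
CPM (vertical axis, from 0) of 8 matrix genes in each library, by genotype (horizontal axis), with the mean of 3 as a bar and the number in the sample title as the symbol. Thbs1 separates the 3 gtf2i cross genotypes, whereas for Col1a1 and Col4a1 the gtf2i/gtf2i library of title number 12419 lies within the wt range (295 CPM) or just below it (526 CPM).

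The other small proteoglycans and matricellular genes differed in sign and size. Lum encodes lumican, a keratan sulphate proteoglycan that binds collagen fibrils (chr10:97565501-97572703), and had 29.2, 26.8 and 28.9 CPM in wt, 22.4, 25.5 and 24.0 in gtf2i, and 35.4, 39.5 and 29.6 in gtf2i/gtf2i. The gtf2i/gtf2i libraries were the highest and the gtf2i libraries the lowest, with no overlap between any pair of groups. Lum rose in gtf2i/gtf2i against gtf2i (1.44-fold, log2 0.53 ± 0.13, adjusted p = 0.0368, edgeR) but did not pass against wt (log2 0.28 ± 0.12, adjusted p = 0.311). Dcn encodes decorin, a related proteoglycan that also binds collagen fibrils, and lies next to Lum on chromosome 10, with 47337 bases between them. Dcn had 22.7, 18.3 and 23.3 CPM in wt, 15.5, 19.2 and 19.0 in gtf2i, and 11.5, 16.4 and 17.4 in gtf2i/gtf2i. All gtf2i/gtf2i values of Dcn were below all wt values, while the gtf2i values overlapped wt. The gtf2i/gtf2i difference did not pass (log2 -0.52 ± 0.17, adjusted p = 0.163, edgeR) but did with the title number as a block (adjusted p = 0.0337). Sparc had 278, 280 and 283 CPM in wt and 324, 349 and 295 in gtf2i/gtf2i, again without overlap and without a call (log2 0.19 ± 0.08, adjusted p = 0.249). Postn (periostin) had log2 -0.39 ± 0.25 and Thbs3 (thrombospondin-3) 0.20 ± 0.13, and neither passed. Postn ran from -0.58 (without gtf2i cross wt replicate 1) to -0.19 (without gtf2i cross wt replicate 3) when 1 library was left out, and had -0.04 without the libraries of title number 12419, a choice made after seeing the data.

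Of the 9 fibrillar collagens 8 had fitted values above 0 in gtf2i/gtf2i against wt, with a median of 0.35 and 5 at an unadjusted p under 0.05. With all 9 libraries of the cross and no block, edgeR called none of them and DESeq2 called Col5a2 (adjusted p = 0.0214), where it called 2.75% of all genes. Without gtf2i/gtf2i replicate 3, edgeR called 5 of the 9, among them Col5a2 (adjusted p = 0.00232), Col1a1 (0.00463) and Col1a2 (0.0108), in a fit that called 9.9% of all genes. Col5a2 encodes a type V chain that is incorporated into type I fibrils (chr1:45374331-45503282). Its levels were 116, 107 and 101 CPM in wt, 96.5, 111 and 101 in gtf2i, and 151, 165 and 123 in gtf2i/gtf2i. The gtf2i/gtf2i values lay above all 6 others. Col5a2 rose in gtf2i/gtf2i against gtf2i (1.41-fold, log2 0.50 ± 0.11, adjusted p = 0.0253, edgeR) and did not pass against wt (1.34-fold, log2 0.43 ± 0.11, adjusted p = 0.0683, or 0.0193 with the block).

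The type I collagen chains had larger but more variable differences. Col1a1 had 307, 255 and 252 CPM in wt, 218, 425 and 371 in gtf2i, and 471, 573 and 295 in gtf2i/gtf2i. The third gtf2i/gtf2i library lay within the wt range and 2 gtf2i libraries lay above it. The fitted log2 difference from wt was 0.71 ± 0.23 (adjusted p = 0.146, edgeR, or 0.0464 with the block). Its partner chain Col1a2 had 278, 237 and 246 CPM in wt and 343, 449 and 278 in gtf2i/gtf2i (log2 0.48 ± 0.17, adjusted p = 0.185, or 0.0419 with the block). Without gtf2i/gtf2i replicate 2 the Col1a2 difference was 0.29 (adjusted p = 0.604, edgeR). Col3a1, which forms fibrils with type I collagen in soft tissue, had 421, 338 and 377 CPM in wt and 491, 523 and 358 in gtf2i/gtf2i (log2 0.26 ± 0.15, adjusted p = 0.448). Of the chains best known from cartilage, Col2a1 (0.06 ± 0.10) and Col11a2 (-0.11 ± 0.22) had the smallest log2 differences of the 9, whereas Col11a1 (0.35 ± 0.14) and Col27a1 (0.50 ± 0.25) had larger ones.

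**Figure D3:**
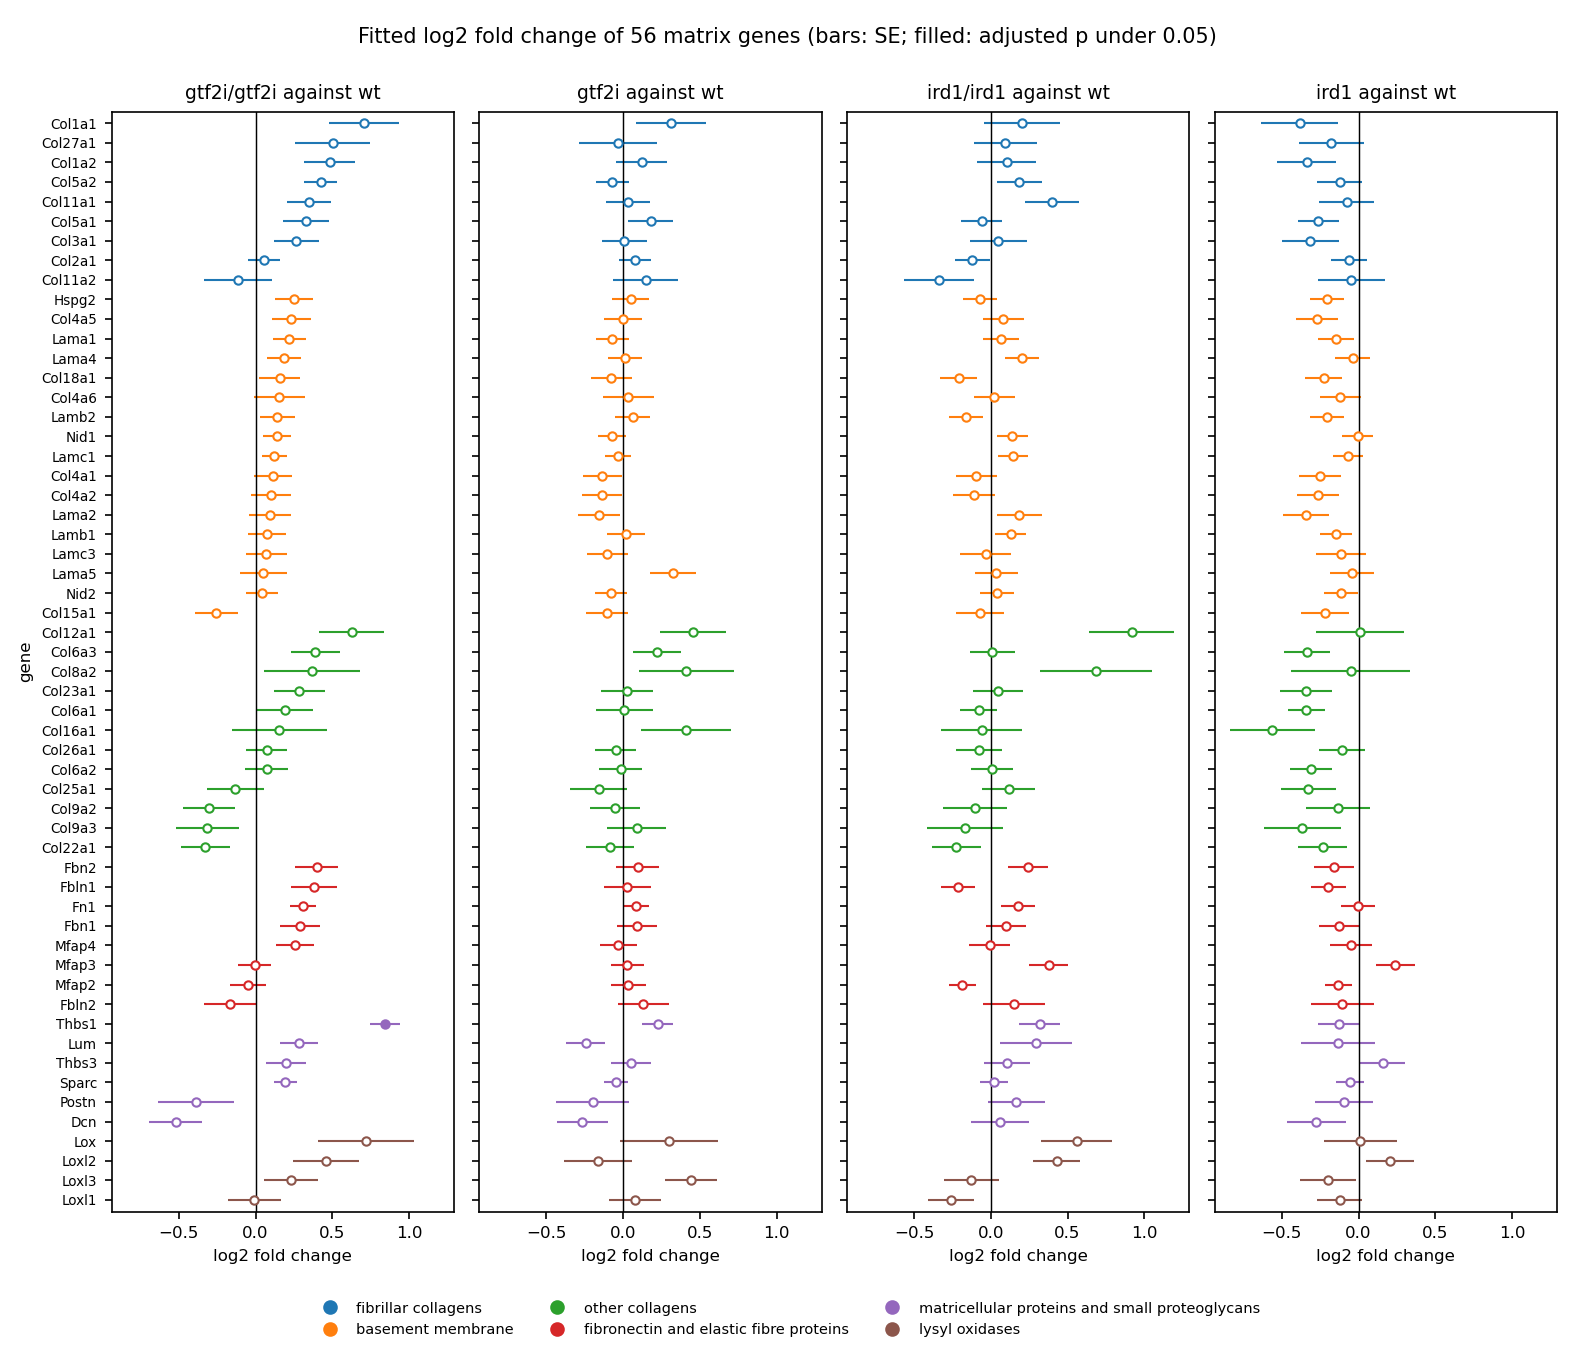
Fitted log2 fold change (horizontal axis) of each of the 56 matrix genes (vertical axis, grouped by role in colour) in 4 comparisons with wt, bars showing the SE and a filled point an adjusted p under 0.05. Thbs1 in gtf2i/gtf2i is the only filled point, and most points in ird1 against wt lie left of 0 (51 of 56).

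Basement membrane genes had small differences. Of 17, 16 had fitted values above 0 in gtf2i/gtf2i against wt, with a median of 0.12 and a largest value of 0.25, none with an unadjusted p under 0.05. By title number, the gtf2i/gtf2i library was above the wt library for 15 of 17 within 11619, 16 within 12301 and 4 within 12419. Perlecan, Hspg2, the heparan sulphate proteoglycan of these sheets, had 309, 267 and 257 CPM in wt and 345, 391 and 262 in gtf2i/gtf2i (log2 0.25 ± 0.12, adjusted p = 0.373, edgeR), so the groups overlapped. The chief laminin chains of the embryonic basement membrane, Lama1 (0.22 ± 0.11), Lamb1 (0.07 ± 0.12) and Lamc1 (0.12 ± 0.08), and the linkers Nid1 (0.14 ± 0.09) and Nid2 (0.04 ± 0.11) did not pass either. Col4a1 and Col4a2, whose chains form 1 trimer and whose genes overlap by 85 bases at their starts on chromosome 8, had log2 0.11 ± 0.13 and 0.10 ± 0.13. Reads from the overlap could be split between them by the counting, and the labels do not state strand use in it. Col18a1, the source of endostatin, had 0.16 ± 0.13. Col15a1, a vascular basement membrane collagen, was the exception in sign at -0.25 ± 0.14, with -0.41 without gtf2i/gtf2i replicate 1 and -0.15 without replicate 3.

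Fibronectin, the glycoprotein on which many other matrix proteins assemble, had 401, 404 and 418 CPM in wt, 435, 431 and 429 in gtf2i, and 517, 560 and 448 in gtf2i/gtf2i. The 3 groups of Fn1 did not overlap, and within wt and gtf2i the values were close together. Its log2 difference between gtf2i/gtf2i and wt was 0.31 ± 0.08 (adjusted p = 0.0872, edgeR, or 0.0367 with the block). Among its 8-gene group, 5 had fitted values above 0 and 4 an unadjusted p under 0.05, including the fibrillins Fbn2 (0.40 ± 0.14) and Fbn1 (0.29 ± 0.13) and the fibulin Fbln1 (0.38 ± 0.15). Mfap2, the most abundant of the group per length, had -0.05 ± 0.12.

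Among the 12 other collagens 8 had fitted values above 0, with a median of 0.11. Col12a1, a collagen that decorates the surface of fibrils, had 23.3, 27.0 and 25.0 CPM in wt and 40.4, 51.7 and 26.2 in gtf2i/gtf2i (log2 0.63 ± 0.21, adjusted p = 0.176, edgeR, and log2 0.40 without gtf2i/gtf2i replicate 2). The type VI chain Col6a3 had 0.39 ± 0.16, while its partner chains Col6a1 (0.19 ± 0.19) and Col6a2 (0.07 ± 0.14) were nearer 0. The lowest were Col22a1 (-0.33 ± 0.16) and the type IX chains Col9a3 (-0.31 ± 0.20) and Col9a2 (-0.30 ± 0.17). Col22a1 had -0.18 without gtf2i cross wt replicate 1, and Col9a3 -0.15 without gtf2i/gtf2i replicate 3. Of the 4 lysyl oxidases 3 were above 0, led by Lox with 0.72 ± 0.31. Lox had 9.79, 27.9 and 19.2 CPM in gtf2i/gtf2i against 7.34, 12.1 and 14.1 in wt, so the groups overlapped. By title number the log2 ratio of Lox was 1.88 within 11619, 0.44 within 12419 and -0.29 within 12301.

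The gtf2i/gtf2i libraries differed in how far they stood above wt. Each title holds a number whose meaning the labels do not give. The gtf2i cross has 3 of these numbers, each on 1 wt, 1 gtf2i and 1 gtf2i/gtf2i library. Within number 11619 the gtf2i/gtf2i library was above the wt library for 45 of 56 matrix genes (median log2 ratio 0.32), and within 12301 for 46 (0.23). Within 12419 it was above for 24 (median -0.01). The wt and gtf2i/gtf2i libraries of number 12419 also had the smallest share of counts in the table's 10 most abundant genes (4.28% and 4.51%, against 5.70% to 8.96% in the other 7 libraries of the cross), and its part in the result was not tested. Across all 3 numbers 20 matrix genes were higher in gtf2i/gtf2i each time (35.7%), among them Thbs1, Col1a1, Col1a2, Col5a2, Fn1, Lum and Sparc, and 4 were lower each time (7.14%), among them Dcn. The shares over all genes were 19.6% and 20.1%. With the title number as a replicate block, 6 matrix genes were called against wt by edgeR, namely Fn1 (adjusted p = 0.0367), Col1a1 (0.0464), Col1a2 (0.0419), Col5a2 (0.0193) and Thbs1 higher and Dcn lower (0.0337), which is 10.7% of the matrix genes against 5.33% of all genes. Without gtf2i/gtf2i replicate 3, the library of number 12419, 17 were called (30.4%, against 9.9% of all genes), 16 of them higher. Without all libraries of that number, a choice made after seeing the data, 9 were called (16.1%, against 2.96%). The median of 0.17 was 0.10 without gtf2i/gtf2i replicate 2 and 0.26 without replicate 3. Leaving out any other single gtf2i/gtf2i or wt library left 1 call.

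Between gtf2i and wt most matrix genes had small differences. Of 56, 32 had fitted values above 0 (57.1%, against 49.6% of all genes), with a median of 0.02, and 0 were called by edgeR. Leaving out 1 library moved the median from -0.03, with 25 genes above 0, to 0.08, with 39. Within title number 12301 the gtf2i library was above wt for 14 genes (median log2 ratio -0.13), within 11619 for 36 (0.04) and within 12419 for 40 (0.11). The only gene called of all (0.00854%) was Gtf2i. DESeq2 also called 0 matrix genes, and at an unadjusted p under 0.05 edgeR gave 3 (0.624% of all genes were higher at that limit), Loxl3 (log2 0.44 ± 0.17), Lama5 (0.33 ± 0.15) and Thbs1, all higher, named here after their values were seen.

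The same gtf2i/gtf2i libraries were also compared with gtf2i. Here they had 40 of 56 matrix genes above 0 (71.4%, against 51.5% of all genes) with a median of 0.17. Of the 365 genes called (3.12%, and 1.33% higher), 3 were matrix genes, Thbs1, Col5a2 and Lum, all higher. At an unadjusted p under 0.05, 14 were higher and 0 lower, where 7.14% and 9.39% of all genes met that limit. Thbs1 stayed called under each alternative, whereas Col5a2 was called in 10 and Lum in 8 of 15. Only Thbs1 remained when gtf2i replicate 1, 2 or 3 or gtf2i/gtf2i replicate 1 or 2 was left out, and without gtf2i/gtf2i replicate 3, 18 were called (32.1%, against 11.8% of all genes). Without all libraries of title number 12419, 13 were called (23.2%, against 7.25%), and with the replicate block 4 (7.14%, against 7.62%). The median was 0.07 without gtf2i replicate 1 or gtf2i/gtf2i replicate 2, 0.28 without gtf2i/gtf2i replicate 3 and 0.31 without number 12419. Within title number 12419 the gtf2i/gtf2i library was above the gtf2i library for 18 of 56 genes (median log2 ratio -0.15), against 43 within 11619 (0.27) and 45 within 12301 (0.36). Next in order of unadjusted p, and not called, were Sparc (0.24 ± 0.08, adjusted p = 0.111), Loxl2 (0.62 ± 0.22, 0.153), Lama1 (0.29 ± 0.11, 0.177) and Fn1 (0.23 ± 0.08, 0.177). The lower values with the smallest p were those of Col9a3 (-0.40 ± 0.20), Lama5 (-0.27 ± 0.15) and Fbln2 (-0.29 ± 0.17). Without gtf2i/gtf2i replicate 3 they had -0.24, -0.15 and -0.08, Col9a3 had -0.24 without gtf2i replicate 2, and Lama5 -0.15 without gtf2i replicate 1. Without number 12419 Col9a3 had -0.08, Fbln2 -0.12 and Lama1 0.44, and Loxl2 had 0.95 without gtf2i replicate 3.

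Markers of several cell types also differed between gtf2i/gtf2i and wt, some lists being higher and some lower. Their part in the matrix gene differences was not tested. Of 22 listed markers of meningeal and other mesenchyme, 12 were in the table, among them the transcription factor genes Foxc1, Foxd1 and Twist1. Against wt, 11 of the 12 had fitted values above 0 in gtf2i/gtf2i, with a median of 0.38 and 0 called. Their summed level was 257 to 294 CPM in wt, 276 to 293 in gtf2i and 321 to 419 in gtf2i/gtf2i, so the gtf2i/gtf2i libraries lay above all others. Crabp2, a retinoic acid binding protein gene of that list, rose against gtf2i (log2 0.81 ± 0.17, adjusted p = 0.0209, edgeR). Markers on other lists were also called, in both directions, and examples are named here after their values were seen. The choroid plexus gene Ttr had 170 to 238 CPM in wt and 60.3 to 84.1 in gtf2i/gtf2i, and the neuronal Neurod2 102 to 165 and 50.2 to 58.4. The radial glia gene Vim had 829 to 969 and 1061 to 1285 CPM. All 9 red blood cell genes in the table were above 0 (median 0.41), and their sum was 4162 to 5371 CPM in wt and 5878 to 9252 in gtf2i/gtf2i. Of 20 neuronal markers 17 were below 0 (median -0.21), with sums of 7484 to 8388 and 6046 to 8019 CPM. Radial glia markers summed to 3474 to 3875 CPM in wt and 4060 to 4583 in gtf2i/gtf2i, endothelial markers to 720 to 864 and 792 to 938, mural cell markers to 624 to 692 and 660 to 748, macrophage markers to 68.8 to 102 and 95.4 to 113, and choroid plexus markers to 314 to 407 and 233 to 270.1. The endothelial, mural, macrophage and neuronal ranges of wt and gtf2i/gtf2i overlapped, and those of radial glia, red blood cells and choroid plexus did not.

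**Figure D4:**
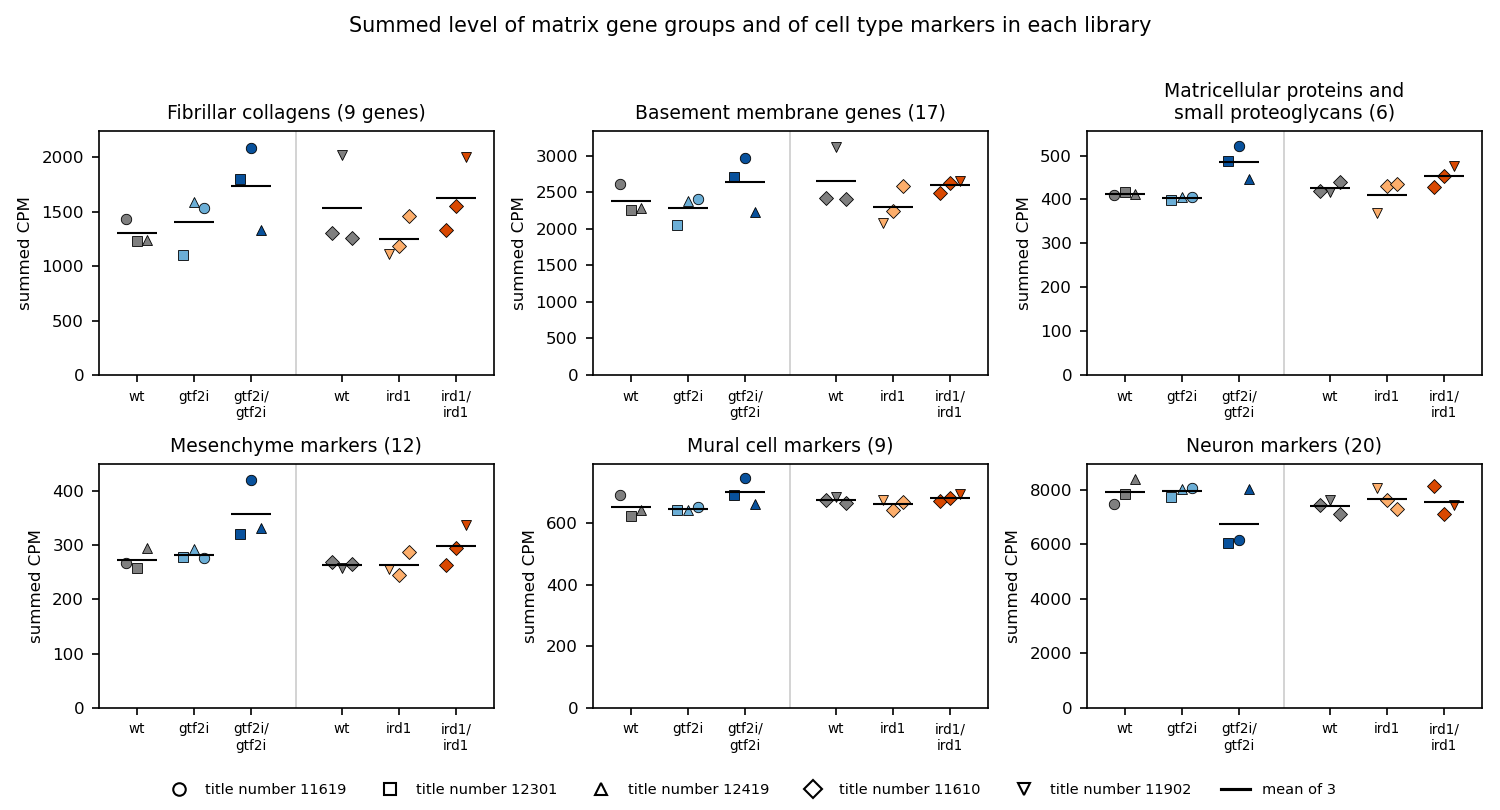
Summed CPM (vertical axis, from 0) of 3 matrix gene groups and 3 marker lists in each library, by genotype (horizontal axis), with the mean of 3 as a bar and the title number as the symbol. In gtf2i/gtf2i the library of number 12419 is the lowest for fibrillar collagens (1332 CPM) and the highest for neuron markers (8019 CPM), while its mesenchyme sum stays above every wt library.

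Of 105 listed genes that make, sense, degrade or signal through matrix, 0 were called against wt and 5 against gtf2i (4.76%, against 3.12% of all genes). Of 25 genes for making and secreting collagen, 19 had fitted values above 0 against wt (median 0.09) and 0 were called, and against gtf2i the procollagen protease gene Adamts3 fell (log2 -1.02 ± 0.16, adjusted p = 0.00465, edgeR). Of 29 matrix receptor genes 22 were above 0 against wt (median 0.17) and 0 were called. Against gtf2i, Itga4, the alpha-4 integrin that binds fibronectin, rose (0.70 ± 0.16, adjusted p = 0.0303) and the syndecan Sdc3 fell (-0.42 ± 0.11, just under the limit). Matrix proteases and their inhibitors were split evenly, 13 above and 13 below 0, with 0 called in either comparison, the smallest p against wt being those of Adamts15 (0.71 ± 0.16) and Adamts18 (-0.94 ± 0.31). Of 25 TGF-beta pathway genes 15 were above 0 against wt with 0 called, while the latent TGF-beta binding proteins Ltbp3 (-0.58 ± 0.12, adjusted p = 0.0231) and Ltbp1 (-0.59 ± 0.14, 0.0384) fell against gtf2i.

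Further matrix genes known from neural tissue, listed from general knowledge, differed in sign. The list is not limited to products of neurons and glia, since Cspg4, for example, is on the mural cell list too. Of 24 such genes 15 had fitted values below 0 in gtf2i/gtf2i against wt (median -0.10), where 50.4% of all genes were above 0. Among them Tnc and Reln were called, where 0.94% of all genes were. Tenascin-C, Tnc, a glycoprotein of progenitor zones, had 45.2, 40.8 and 43.7 CPM in wt and 12.0, 15.0 and 20.8 in gtf2i/gtf2i. It fell by 1.43 on the log2 scale (SE 0.22, adjusted p = 0.0064, edgeR). Reelin, Reln, the signal secreted by Cajal-Retzius neurons, had 452, 466 and 537 CPM in wt and 304, 271 and 337 in gtf2i/gtf2i. It fell by 0.68 on the log2 scale (SE 0.10, adjusted p = 0.00697). Against gtf2i the fitted log2 values were -1.55 ± 0.21 for Tnc and -0.86 ± 0.10 for Reln, both called, where 3.12% of all genes were. Whether they differ from the 56 matrix genes was not tested.

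In the ird1 cross no matrix gene was called in any comparison. In ird1/ird1 against wt 35 of 56 had fitted values above 0 (62.5%, against 49.5% of all genes), with a median of 0.05, and the only gene called of all (0.00854%) was Gtf2ird1 itself, by edgeR. DESeq2 called 0 matrix genes too, and 6 had an unadjusted p under 0.05, all higher, where 7.7% of all genes were higher at that limit. The smallest p belonged to Col12a1 (log2 0.92 ± 0.27, adjusted p = 0.296), which had 21.8, 24.7 and 15.8 CPM in wt and 27.3, 28.0 and 63.4 in ird1/ird1. The groups did not overlap, but 1 library stood far above the rest, and without ird1/ird1 replicate 3 the difference was 0.42. The lysyl oxidases Lox (0.56 ± 0.23) and Loxl2 (0.43 ± 0.15), the microfibril gene Mfap3 (0.38 ± 0.13), Col11a1 (0.40 ± 0.17) and Thbs1 (0.32 ± 0.13) were the other 5. Thbs1 had 29.2, 33.9 and 32.3 CPM in ird1 cross wt and 37.0, 40.5 and 41.6 in ird1/ird1, a separation without overlap that did not pass (adjusted p = 0.296, edgeR). The lower values with the smallest p were those of Mfap2 (-0.19 ± 0.09), Fbln1 (-0.22 ± 0.11), Loxl1 (-0.26 ± 0.15) and Col18a1 (-0.21 ± 0.12). Without ird1 cross wt replicate 2, Col18a1 had -0.04, Fbln1 -0.13 and Mfap3 0.23, and without ird1/ird1 replicate 3, Loxl1 had -0.16 and Col11a1 0.24. In 2 alternatives added after seeing the data these values also moved. Without the libraries of title number 11902, Loxl1 had -0.08, Col18a1 -0.05, Col11a1 0.16 and Col12a1 0.53. With each library's trend on transcript length removed, Mfap2 had -0.04, the median was -0.04 and 24 genes were above 0. Leaving out 1 library gave medians from 0.00, with 28 of 56 above 0 (without ird1/ird1 replicate 3), to 0.12 (without ird1/ird1 replicate 1). In ird1/ird1 replicate 3 the 10 most abundant genes took 8.18% of counts, against 5.59% and 4.95% in the other 2, and its part was not tested.

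In ird1 against wt 51 of 56 matrix genes had fitted values below 0 (48.9% of all genes were above 0), a median of -0.13 and 0 called, by edgeR and by DESeq2. Of all genes edgeR called 0. At an unadjusted p under 0.05, 4 were lower and 0 higher, where 1.73% and 1.29% of all genes met that limit. They were the 3 type VI chains Col6a1 (-0.34 ± 0.12), Col6a2 (-0.31 ± 0.14) and Col6a3 (-0.34 ± 0.15), which assemble into beaded filaments, and Lama2 (-0.34 ± 0.15), all named here after their values were seen. For the type VI chains wt replicate 2 was the highest wt library, at 41.8, 61.2 and 66.1 CPM. Replicate 1 had 37.3, 44.3 and 48.6, and replicate 3 had 36.7, 46.7 and 51.0. Leaving out 1 library moved the median between -0.24 (without ird1 replicate 3) and -0.06 (without ird1 cross wt replicate 2, with 12 of 56 above 0). The latter, the library with the fewest counts, had the highest level of its group for 23 of the 27 collagens and the lowest for 2. In the 3 wt libraries Col4a1 had 576, 834 and 586 CPM, Col3a1 355, 590 and 342, and Col1a1 299, 494 and 268. The 10 most abundant genes took 9.59% of that library's counts, against 5.97% and 6.45% in the other wt libraries and 5.34% to 6.03% in ird1. Endothelial markers summed to 837 to 905 CPM in wt and 722 to 849 in ird1, macrophage markers to 93.1 to 104 and 82.3 to 92.1, without overlap for the latter, and mesenchyme markers to 257 to 268 and 245 to 286. The part of these in the difference was not tested. Without both compared libraries of title number 11902, a choice made after seeing the data, the median was 0.00, with 28 of 56 above 0. That number was carried by wt replicate 2 and by 1 ird1 and 1 ird1/ird1 library. Within it the ird1 library was below wt for 50 genes (median log2 ratio -0.45), and within number 11610 for 31 (median -0.01).

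Between ird1/ird1 and ird1, 50 of 56 matrix genes had fitted values above 0 (89.3%, against 49.1% of all genes), with a median of 0.21. None was called by edgeR or DESeq2, and edgeR called 0 of all genes, while 19 had an unadjusted p under 0.05, all higher, against 2.84% of all genes. Lama2, the alpha chain of the laminin best known from muscle and vessel walls, had 24.1, 22.4 and 33.5 CPM in ird1 and 38.8, 37.0 and 40.7 in ird1/ird1 (log2 0.53 ± 0.14, adjusted p = 0.766, edgeR). The same direction was seen within both title numbers, with median log2 ratios of 0.40 (11902) and 0.15 (11610). In 2 alternatives added after seeing the data the fitted median was smaller, at 0.11 with 46 genes above 0 when each library's trend on transcript length was removed, and 0.13 with 40 above 0 without number 11902. The mesenchyme markers summed to 245 to 286 CPM in ird1 and 264 to 337 in ird1/ird1, and their part in the difference was not tested.

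The effects of the homozygous mutations were compared in 1 fit of all 18 libraries. The gtf2i/gtf2i effect minus the ird1/ird1 effect was above 0 for 37 of 56 matrix genes (66.1%, against 48.4% of all genes), with a median difference of 0.15, and 0 were called of 20 genes in all (0.171%). DESeq2 called 0 as well, and 2 were higher and 2 lower at an unadjusted p under 0.05, where 6.48% and 6.47% of all genes met that limit. These were Thbs1 (log2 difference 0.52 ± 0.16, adjusted p = 0.217, edgeR), Fbln1 (0.59 ± 0.20, 0.258), Mfap3 (-0.39 ± 0.17, 0.358) and Dcn (-0.58 ± 0.27, 0.364). Next among the higher were Col18a1 (0.36 ± 0.20) and Lamb2 (0.30 ± 0.17), and among the lower Postn (-0.56 ± 0.31). Without ird1 cross wt replicate 2, Col18a1 had 0.19, Lamb2 0.17 and Mfap3 -0.24. Without gtf2i/gtf2i replicate 3 Col18a1 had 0.54, and without gtf2i cross wt replicate 3 Postn had -0.35. The Thbs1 response was not shown to differ between the crosses. The median difference was 0.03 without ird1 cross wt replicate 2, 0.04 without gtf2i/gtf2i replicate 2, and 0.24 with the length trend removed. Without gtf2i/gtf2i replicate 3 Fbln1 (adjusted p = 0.00620) and Thbs1 (0.0477) were called, where 6.18% of all genes were. The wild types of the crosses were also compared with each other. Here 35 of 56 matrix genes were lower in gtf2i cross wt and 21 higher (37.5%, against 48.8% of all genes; median -0.13, or -0.01 without ird1 cross wt replicate 2, -0.20 without replicate 1 and -0.23 with the length trend removed) and 0 were called by edgeR, of 0 genes in all, with 1 higher and 5 lower at an unadjusted p under 0.05 (17.1% and 15.6% of all genes). DESeq2 called 2 there, Col18a1 and Mfap2 (3.57%, against 13.3% of all genes).

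Some matrix genes lie side by side on a chromosome. Besides Lum with Dcn and Col4a1 with Col4a2, 3 pairs had under 100000 bases between them. Col3a1 and Col5a2 (24624 bases apart) had 0.26 ± 0.15 and 0.43 ± 0.11 on the log2 scale in gtf2i/gtf2i against wt, Col6a1 and Col6a2 (85161 bases) 0.19 ± 0.19 and 0.07 ± 0.14, and Col4a5 and Col4a6 (1274 bases) 0.23 ± 0.13 and 0.16 ± 0.17. The 56 genes were spread over 17 chromosomes.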

How the data were processed

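The authors deposited raw read counts, whole numbers not scaled by them, for each gene in 18 libraries. Per the submitters' processing notes, Trimmomatic, STAR and HTSeq and the build mm10 were used. Versions and strand settings are not given in the sources used here. The 32 chromatin immunoprecipitation and input samples were not analysed here. Members and gene lists were chosen with earlier results of these data known.

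Counts were scaled by TMM and tested with edgeR 4.0.16 (R 4.3.3; filterByExpr removed 0 genes) by the quasi-likelihood test with Benjamini-Hochberg adjustment over 11708 genes. Each cross was fitted on its 9 libraries, with 6 residual degrees of freedom, and comparisons between crosses on all 18, with 12. SE is the log2 fold change over the square root of F. CPM used TMM-scaled totals, and levels between genes were divided by the deposited transcript length. Depth set the counting error, while amplified reads are not independent molecules. Nothing in the labels beyond separate titles says that the 3 libraries of a group came from separate embryos, so p-values measure the spread between these samples.

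Title numbers served as a replicate block: same-numbered gtf2i/gtf2i and wt libraries deviated together, each r over 0.1 (0.377, 0.103 and 0.520), though 1 of the 6 differently numbered pairs reached 0.203. Same-group libraries differed by more than sampling noise (a ratio of chi-square to its degrees of freedom from 2.9 to 29.5). Alternatives were DESeq2 1.42.0, other normalizations, filters and fits, each library left out, the block, a length offset and omitted title numbers. The fits were also run on simulated data, whose outcome is not reported here. The genes named were chosen from those called in any comparison, the 6 higher and 6 lower with the smallest p in 4 comparisons, the 3 most abundant per role, and a list of well-known members. Further genes are named to complete a protein family or neighbouring pair, and were chosen after their values were seen.

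All 56 Ensembl IDs matched the name table, and positions came from the RefSeq annotation of GRCm38.p6.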

Additional observations from a re-analysis of the deposited data

How the results depend on the processing

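When 1 library was left out, the median over the 56 genes ran from 0.10 to 0.26 for gtf2i/gtf2i against wt, 0.07 to 0.28 against gtf2i, -0.03 to 0.08 for gtf2i against wt, 0.00 to 0.12 for ird1/ird1 against wt, -0.24 to -0.06 for ird1 against wt, 0.17 to 0.29 for ird1/ird1 against ird1, and 0.03 to 0.21 for the difference between the effects. Against wt, gtf2i/gtf2i gave 1 called matrix gene, where 0.94% of all genes were called. DESeq2 gave 3 (Fn1, Col5a2, Thbs1), with 2.75% of all genes, and the replicate block 6, with 5.33%. Without the libraries of title number 12419 there were 9 (2.96% of all genes). Leaving out 1 library gave 1 to 17, the highest without gtf2i/gtf2i replicate 3 (9.9% of all genes). Against gtf2i, gtf2i/gtf2i gave 3 (3.12% of all genes were called) and 13 without number 12419 (7.25%). It gave 1 to 18 when 1 library was left out, the highest without gtf2i/gtf2i replicate 3 (11.8%). For the difference between the effects, leaving out 1 library gave 0 to 2, the highest without gtf2i/gtf2i replicate 3 (6.18% of all genes). For gtf2i cross wt against ird1 cross wt it gave 0 to 3, and DESeq2 gave 2 (13.3%). There, Col18a1, Mfap2 and Col22a1 were called without gtf2i cross wt replicate 1, and Mfap2 without ird1 cross wt replicate 1. The share of all genes called in those fits is not given here, so these calls cannot be weighed against it. The cause was not tested.

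Against gtf2i the replicate block gave 4, with Loxl2 added, and 7.62% of all genes. There and for gtf2i against wt, not every same-numbered pair had r over 0.1, and in the ird1 cross some were below 0. The block could not be fitted between the wt groups, since no title number occurs in both crosses. Single-gene results stayed the same in 710 fits, moved in 21, gained a call in 25 and lost it in 12, and none turned its direction. Most of these results had no call to lose. Thbs1 kept its calls against wt and against gtf2i in all 15 alternatives. Against gtf2i, Col5a2 kept its call in 10 of 15 and Lum in 8, so all losses were theirs. The length trend and the omitted title numbers were chosen after seeing the data. Each group held 3 libraries, and the thinnest value was 20 counts. The low genes Postn, Col16a1 and Col27a1 had within-group SDs of 0.27, 0.42 and 0.29 on the log2 scale. How small a difference could be detected in them was not measured, so the lack of a call does not show that they were unchanged.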
